A study of Mus musculus with 6 samples.

Results

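The 10 genes described here, Pecam1, Cdh5, Kdr, Tek, Tie1, Vwf, Sox17, Erg, Cldn5 and Emcn, are markers of the endothelial cells that line the blood vessels of the lung. They were taken by name from 21887 protein-coding mouse genes, and all 10 were found. Every peak overlapping a gene's mm10 span plus or minus 5 kb was taken from each of 6 peak lists. The lists come from MBD-seq, in which a methyl-CpG-binding domain pulls methylated DNA out of the sample for sequencing, so that peaks show where methylated DNA was concentrated. The libraries were made from whole lungs of 3 Tg(SPC-DNMTΔ3B/DG) transgenic mice and 3 wild-type mice, all aged 12 to 16 months. The genotype label reads SPC-DNMTdelta3B/DG for transgenic replicates 1 and 3 and SPC-DNMTdeltaB/DG for transgenic replicate 2. The transgene carries the DNMT3B variant ΔDNMT3B4-del under the promoter of surfactant protein C, a gene of alveolar type 2 epithelial cells and not of endothelium. The study made several founder lines, and the labels do not name the line of each animal. In whole-lung DNA, a different share of endothelial cells and a different methylation within them cannot be told apart. The lists hold no expression values, so the endothelial label was not checked against RNA.

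The lists differed in length. They held 120349, 116352 and 78952 peaks in transgenic replicates 1, 2 and 3, against 60131, 111211 and 30640 peaks in wild-type replicates 1, 2 and 3. Wild-type replicate 3 also had narrow peaks, with a median width of 197 bp against 376 to 460 bp in the other lists. Read depth is unknown.

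Endothelial identity is set by transcription factors of the ETS family, such as Erg, and of the SOXF family, such as Sox17. These factors act on genes for growth factor receptors and for the proteins that join endothelial cells to each other. DNA methylation at a gene's start is usually low where the gene is in use and can be high along the transcribed body. A methyl-CpG-binding protein captures DNA through methylated CG pairs, so a stretch with few CG pairs yields little captured DNA whatever its methylation.

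The starts of these genes are shown first, because none of those with an annotated start sequence held a peak over it. RefSeq start sequences (GRCm38.p6, the assembly of mm10) matched 6 of the 10 genes with 8 entries. No entry was given for Pecam1, Cdh5, Vwf and Sox17. The 250 bases upstream of the start are printed 5′ to 3′ on the gene's strand, with each CG pair in capitals, for 5 genes that differ in the number of CG pairs. The Kdr sequence is chr5:75978456-75978705 (minus strand), that of Erg is its outermost start at chr16:95586594-95586843 (minus strand), and that of Cldn5 is chr16:18776597-18776846 (plus strand). The Tek sequence is chr4:94739039-94739288 (plus strand) and that of Emcn is chr3:137340828-137341077 (plus strand).
Kdr: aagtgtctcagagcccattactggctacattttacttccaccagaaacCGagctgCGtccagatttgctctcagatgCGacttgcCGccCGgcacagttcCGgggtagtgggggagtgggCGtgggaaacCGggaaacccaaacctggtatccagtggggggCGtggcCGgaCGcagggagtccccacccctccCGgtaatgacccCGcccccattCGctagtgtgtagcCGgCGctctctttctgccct
Erg: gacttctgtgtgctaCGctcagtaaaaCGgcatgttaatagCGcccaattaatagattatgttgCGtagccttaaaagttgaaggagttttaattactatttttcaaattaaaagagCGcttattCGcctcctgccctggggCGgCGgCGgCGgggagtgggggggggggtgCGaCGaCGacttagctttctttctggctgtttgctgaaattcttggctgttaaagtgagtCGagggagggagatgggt
Cldn5: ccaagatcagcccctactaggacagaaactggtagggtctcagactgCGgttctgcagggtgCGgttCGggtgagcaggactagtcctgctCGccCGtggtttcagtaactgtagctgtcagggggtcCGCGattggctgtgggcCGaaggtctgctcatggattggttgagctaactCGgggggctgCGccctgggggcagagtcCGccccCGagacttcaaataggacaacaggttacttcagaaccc
Tek: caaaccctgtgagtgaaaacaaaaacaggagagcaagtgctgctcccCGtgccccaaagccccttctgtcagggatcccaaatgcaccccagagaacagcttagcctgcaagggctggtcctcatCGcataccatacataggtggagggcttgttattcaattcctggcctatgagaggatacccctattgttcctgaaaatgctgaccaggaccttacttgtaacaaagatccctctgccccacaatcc
Emcn: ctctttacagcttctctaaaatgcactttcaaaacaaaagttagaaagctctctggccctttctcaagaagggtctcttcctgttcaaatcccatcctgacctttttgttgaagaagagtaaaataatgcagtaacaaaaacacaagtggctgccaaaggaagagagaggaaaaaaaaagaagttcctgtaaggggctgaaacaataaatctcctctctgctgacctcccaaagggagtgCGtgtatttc

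These 250-base sequences held 16 CG pairs in Kdr, 14 in Erg, 12 in Cldn5, 2 in Tek and 1 in Emcn. Tie1 held 6 CG pairs, the same as the median of 32851 RefSeq start sequences. The motif CG reads the same on both strands and was present in 92.1% of those sequences. The 2 start sequences inside Erg held 2 and 3 CG pairs. No list had a peak over any of the 8 entries. Among all start sequences, a peak lay over 4.93%, 4.72% and 2.74% in transgenic replicates 1, 2 and 3 and over 2.04%, 5.03% and 0.661% in wild-type replicates 1, 2 and 3. The absence of a peak from 8 entries is therefore what most genes show. The nearest peak was closest at Tie1, 3.01 to 3.20 kb away across the 6 lists. At the second Erg start it was 3.80 to 4.12 kb away, and at Tek 19.6 to 33.6 kb away.

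Peaks at these genes lay mostly inside the transcribed body, which also makes up most of the length of the summed windows. A peak was found in the body, meaning the span without 1 kb at each end, of 8, 8 and 8 of the 10 genes in transgenic replicates 1, 2 and 3, against 7, 8 and 6 in wild-type replicates 1, 2 and 3. Within 1 kb of either end it was 3, 4 and 3 genes in the transgenic lists, against 2, 3 and 2 genes in the wild-type lists. In the flanks from 1 to 5 kb it was 2, 4 and 1 genes in the transgenic lists, against 1, 3 and 0 genes in the wild-type lists. In each of the 3 parts of the gene the range of the transgenic counts met or overlapped that of the wild-type counts. Over the whole window of span plus or minus 5 kb, 8.33 ± 0.577 genes had a peak in transgenic lungs and 7 ± 1 in wild-type lungs (SD, n = 3 each).

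**Figure D1:**
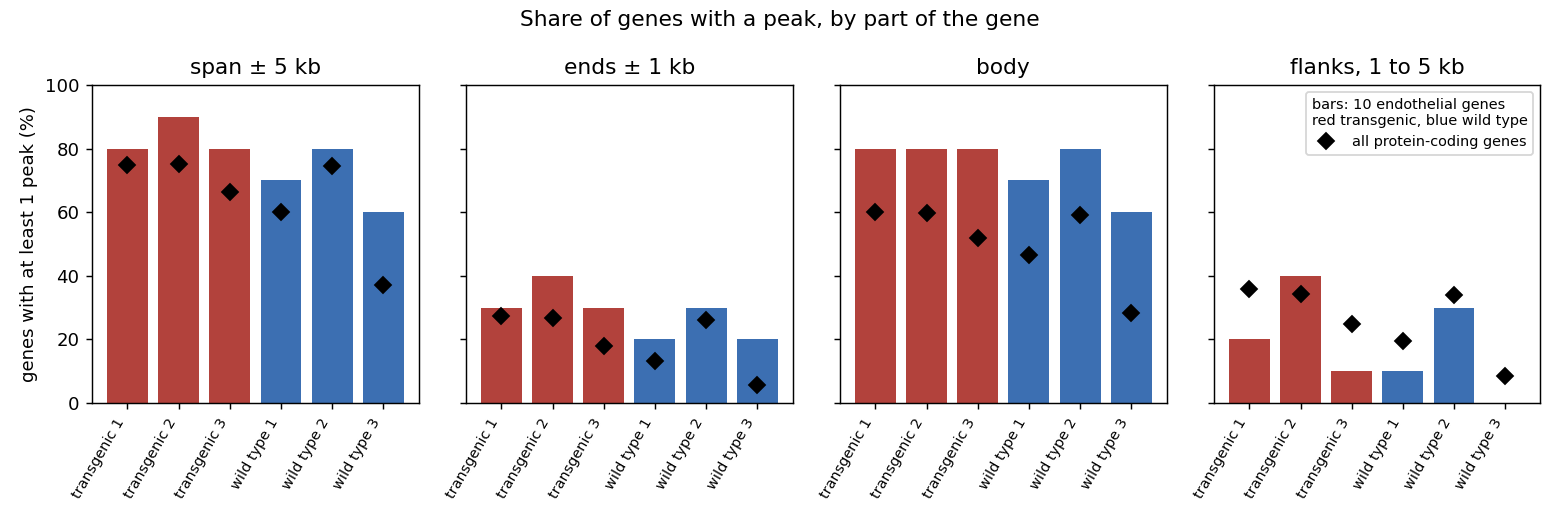
Share of the 10 endothelial genes with at least 1 peak (bars, %) in each library, for the window of span ± 5 kb, the ends ± 1 kb, the body and the flanks, with the share of all 21887 protein-coding genes as diamonds. Body bars stand above the diamond in all 6 lists, while flank bars stand above it only in transgenic replicate 2.

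All protein-coding genes gave the scale for these counts. Of them, 60.2%, 59.8% and 51.8% had a body peak in transgenic replicates 1, 2 and 3, and 46.5%, 59.2% and 28.3% in wild-type replicates 1, 2 and 3. For flanks the shares were 36.0%, 34.3% and 24.9% in the transgenic lists, against 19.4%, 34.1% and 8.43% in the wild-type lists. Within 1 kb of either end they were 27.5%, 26.7% and 17.8% in the transgenic lists, against 13.2%, 26.2% and 5.56% in the wild-type lists. Over the whole window they were 74.8%, 75.2% and 66.2% in the transgenic lists, against 60%, 74.4% and 37.1% in the wild-type lists. Long genes have more room for a peak, so a measure per length was also taken. Peaks covered 4.12%, 3.88% and 2.08% of the summed windows of the 10 genes in transgenic replicates 1, 2 and 3, against 2.03%, 3.68% and 0.616% in wild-type replicates 1, 2 and 3. Over the windows of all protein-coding genes the covered share was 3.05%, 2.54% and 1.57% in the transgenic lists, against 1.15%, 2.59% and 0.275% in the wild-type lists. The endothelial windows were thus covered above the gene-wide level in all 6 lists, a description of 10 chosen genes without a test.

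No endothelial gene separated the groups. Of the 9 genes with a peak in any list, 0 had more peaks in every transgenic list than in every wild-type list, where 3.51% of 17687 protein-coding genes with a peak did, and 0 had fewer, where 0.0339% did. With the 30640 top-scoring peaks of each list, 8 genes had a peak, and 0 were higher (1.40% of genes) and 0 lower (0.990%). By the covered percent of the window the counts were also 0 higher (6.73% of genes) and 0 lower (0.0170% of genes). Two-sided exact permutation tests of the peak number gave p from 0.30 to 1.0 for the 9 genes. With 3 against 3 lungs such a test cannot go below 0.10, so no gene could reach an unadjusted p under 0.05, and the lowest Benjamini-Hochberg adjusted p over all 17687 genes was 0.983. The mean peak number was higher in transgenic lungs at 9 of 9 endothelial genes and at 81.9% of all genes tested. With the 30640 top-scoring peaks of each list, however, this mean was lower at Pecam1, Kdr, Vwf and Erg. It stayed higher at Tek and Emcn and was equal at Cdh5 and Tie1. Kdr then held only 1 peak, in wild-type replicate 1, and Emcn only 1, in transgenic replicate 2. The lowest score kept was 241 in transgenic replicate 1 and 50 in wild-type replicate 3. With all peaks, the median difference was 0.667 peaks over the 9 genes and 1 peak over all genes tested.

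Which library was included decided some of these counts. Without transgenic replicate 3, Cdh5 and Vwf had more peaks in every transgenic than in every wild-type list, as had 19.2% of all genes. Without wild-type replicate 2, Pecam1 and Emcn did, as did 37.7% of all genes. Summed over the 10 genes there were 67, 70 and 37 peaks in transgenic replicates 1, 2 and 3, against 42, 64 and 22 in wild-type replicates 1, 2 and 3. That is 58.0 ± 18.2 in transgenic and 42.7 ± 21.0 in wild-type lungs (SD, n = 3 each), a difference of 15.3 peaks that is within the spread of either group. The difference turned to -3 with the 30640 top-scoring peaks of each list. Leaving out transgenic replicate 2 gave 9.33 and leaving out transgenic replicate 3 gave 25.8. Leaving out wild-type replicate 2 gave 26, and 5 was the value when replicate 3 of that group was dropped. Set against list length, the genes held 5.57, 6.02 and 4.69 of every 10000 peaks in the transgenic lists, against 6.98, 5.75 and 7.18 in the wild-type lists. Whether list length accounts for the differences in peak number was not tested.

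**Figure D2:**
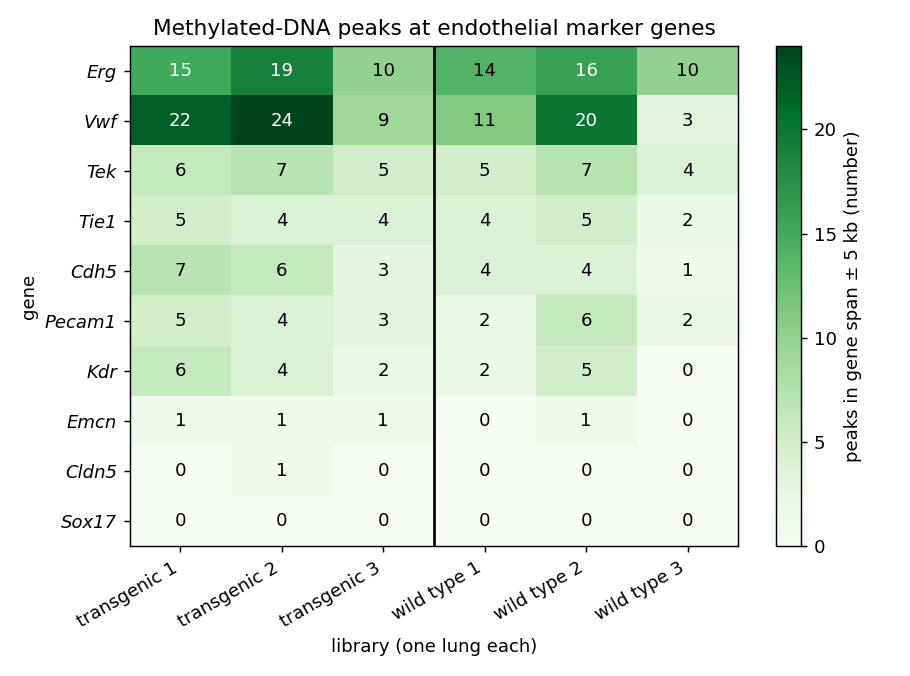
Number of peaks in the span ± 5 kb of each gene (rows) in each library (columns, transgenic left of the line). Erg and Vwf together hold 51.4% to 61.4% of the peaks of each library, Sox17 holds 0 throughout and Cldn5 holds 1 peak in transgenic replicate 2 alone.

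Among the receptors, Kdr encodes the main signalling receptor for vascular endothelial growth factor. It spans 46.2 kb on chromosome 5 (75932827 to 75979072, minus strand) and its upstream end overlaps the long non-coding RNA gene Gm32727. Kdr had 6, 4 and 2 peaks in transgenic replicates 1, 2 and 3, against 2, 5 and 0 in wild-type replicates 1, 2 and 3. The peak caller's scores, which are the authors' own, begin at 50 and are not scaled between lists, and the highest at Kdr was 160, 110 and 79.5 in the transgenic lists, against 80.8 and 80.3 in wild-type replicates 1 and 2. All Kdr peaks lay in the body and all had modest scores. Wild-type replicate 3 had none.

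Tek and Tie1 encode the paired receptor tyrosine kinases of the angiopoietin system, in which Tek binds the ligands and Tie1 acts beside it. Tek spans 136 kb on chromosome 4 (94739086 to 94874976, plus strand) and had 6, 7 and 5 peaks in transgenic replicates 1, 2 and 3, against 5, 7 and 4 in wild-type replicates 1, 2 and 3. These numbers overlapped, and all peaks lay in the body 58.1 kb or more from the start. The first of them, from 94797236 to 94798379, was present in all 6 lists. The score of its best peak was 725, 611 and 312 in the transgenic lists, against 72.4, 661 and 70.1 in the wild-type lists. In wild-type replicate 1 the region was split into peaks with scores of 62.6 and 72.4. That put the best peak above 96.2%, 97.4% and 95.0% of all peaks in transgenic replicates 1, 2 and 3. In wild-type replicates 1, 2 and 3 it stood above 45.7%, 99.2% and 48.9%. Wild-type replicate 2 resembled the transgenic lists at this place, and wild-type replicates 1 and 3 stood lower. A pair of neighbouring regions further in, from 94817796 to 94818673 and from 94818840 to 94819590, were also present in all 6 lists. The first of these ranked above 82.9%, 80.1% and 86.6% of the peaks in transgenic and above 51.3%, 82.8% and 48.2% in wild-type lists. The second ranked above 78.5%, 79.3% and 63.5% in transgenic and above 56.0%, 72.1% and 74.1% in wild-type lists.

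Tie1 is short, 18.7 kb on chromosome 4 (118471191 to 118489849, minus strand), and its few peaks lay close together. By covered percent of the window it stood first of the 10 genes in all lists except transgenic replicate 2, in which Vwf was higher. Tie1 had 5, 4 and 4 peaks in transgenic replicates 1, 2 and 3 and 4, 5 and 2 in wild-type replicates 1, 2 and 3. They covered 8.95%, 6.37% and 4.83% of its window in the transgenic lists, against 4.77%, 8.29% and 1.25% in the wild-type lists. In every list between 84.5% and 93.4% of protein-coding genes had a lower covered percent. The region nearest its start, from 118486113 to 118486842 and 3.01 kb inside the gene, had a peak in all 6 lists, with a score of 297, 165 and 148 in transgenic and 66.0, 159 and 60.7 in wild-type lungs.

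Among surface and junction proteins, Pecam1 encodes CD31, an adhesion molecule of endothelial junctions that is also made by platelets and some leukocytes. It spans 61.1 kb on chromosome 11 (106654213 to 106715281) and had 5, 4 and 3 peaks in transgenic replicates 1, 2 and 3, against 2, 6 and 2 in wild-type replicates 1, 2 and 3. A region at its lower-coordinate end, from 106654868 to 106655390, had a peak in all lists but wild-type replicate 1. A body region from 106699048 to 106700244 had a peak in all 6 lists.

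Cdh5 encodes VE-cadherin, the adhesion protein of endothelial adherens junctions. It spans 42.9 kb on chromosome 8 (104101613 to 104144504) and had 7, 6 and 3 peaks in transgenic replicates 1, 2 and 3, against 4, 4 and 1 in wild-type replicates 1, 2 and 3. The lowest transgenic count lay within the wild-type range. A body region 1.36 kb from the higher-coordinate end, from 104142360 to 104143140, was among the peaks ranked high in every list. Its score was 787, 454 and 275 in transgenic and 169, 523 and 110 in wild-type lists, which ranked above 96.9%, 94.9% and 93.3% of their peaks in transgenic and above 92.5%, 97.6% and 87.5% in wild-type lists. Below the lower-coordinate end, a region from 104099827 to 104100405 had a peak in all lists but wild-type replicate 3. It lies within the long non-coding RNA gene Gm29682, which overlaps this end of Cdh5.

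Cldn5, the tight-junction gene claudin 5, and Emcn, the sialomucin gene endomucin of capillaries and veins, were nearly free of peaks. Cldn5 is 1.42 kb long on chromosome 16 (18776847 to 18778262, plus strand), so it has no body outside its end zones. The only peak in its window was in transgenic replicate 2, with a score of 58.7, and lay inside the neighbouring gene Cdc45. Emcn spans 90.0 kb on chromosome 3 (137341062 to 137431069, plus strand) and had 1, 1 and 1 peaks in transgenic replicates 1, 2 and 3, against 0, 1 and 0 in wild-type replicates 1, 2 and 3. All were at the same place in the body, with scores of 164, 268 and 59.6 in the transgenic lists, against 83.6 in wild-type replicate 2. The covered percent of the Emcn window was low, with at most 34.7% of all protein-coding genes below it in any list.

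Vwf encodes von Willebrand factor, the clotting protein that endothelial cells store and secrete. It spans 134 kb on chromosome 6 (125552948 to 125686679) and had 22, 24 and 9 peaks in transgenic replicates 1, 2 and 3, against 11, 20 and 3 in wild-type replicates 1, 2 and 3. The counts overlapped between groups, and Vwf had the largest SD in peak number of the 10 genes, 8.14 in transgenic and 8.5 in wild-type lungs, though not in covered percent, where the wild-type SD was 3.05 points at Vwf and 3.52 points at Tie1. Of its 29 merged regions, where peaks of the 6 lists that overlap or touch were joined, 27 lay in the body and 1 had a peak in all 6 lists. That region, from 125599050 to 125600056, had a best peak with scores of 280, 262 and 82.5 in transgenic and 75.2, 158 and 53.5 in wild-type lists. It was split into separate peaks in wild-type replicates 1 and 2. At its higher-coordinate end a region from 125686259 to 125686663 had a peak in all lists but wild-type replicate 3.

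Erg encodes an ETS transcription factor that keeps endothelial cells in their differentiated state. It is the longest of the 10 genes, 227 kb on chromosome 16 (95359169 to 95586600, minus strand), and had 15, 19 and 10 peaks in transgenic replicates 1, 2 and 3, against 14, 16 and 10 in wild-type replicates 1, 2 and 3. The groups overlapped in these counts. Its widest region was an unbroken peak in each transgenic list and in wild-type replicate 2. In wild-type replicates 1 and 3 that region was split into several peaks, each of them counted. Erg held 5 of the 12 regions with a peak in all 6 lists. The widest, from 95508768 to 95511314 and 75.3 kb inside the gene, measured 2547 bp and was wider than 99.9% of the 166001 merged regions of the genome. Peaks covered 2498, 2365 and 2378 bp of it in transgenic replicates 1, 2 and 3, and 2163, 2298 and 1430 bp in wild-type replicates 1, 2 and 3. Its highest score was 1144, 1011 and 505 in transgenic lists and 139, 694 and 102 in wild-type lists. The best peak there ranked above 99.3%, 99.9% and 99.5% of the peaks in transgenic and above 87.7%, 99.4% and 83.7% in wild-type lists. By score, which is not scaled between lists, and by rank, wild-type replicate 2 lay within the transgenic range, so the groups overlapped here too.

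Other shared places in Erg were narrower. At the downstream end, a region from 95358158 to 95358603 had a peak in all 6 lists, with scores of 204, 117 and 99.5 in transgenic and 63.0, 101 and 67.5 in wild-type lists. Erg was the only one of the 10 genes with a peak within 1 kb of an end in all 6 lists, where 3.54% of protein-coding genes had one. A region in the body 51.5 kb from the upstream end, from 95534412 to 95535076, also had a peak in all 6 lists, with scores of 435, 269 and 124 in transgenic and 179, 230 and 88.8 in wild-type lists.

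Sox17, a SOXF transcription factor of arterial endothelium, had no peak within 5 kb in any of the 6 lists. It spans 6.50 kb on chromosome 1 (4490928 to 4497426). No peak in any list was also the case for 19.2% of protein-coding genes. Peaks below a score of 50 are not listed, so weaker capture at Sox17 was not detectable here.

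**Figure D3:**
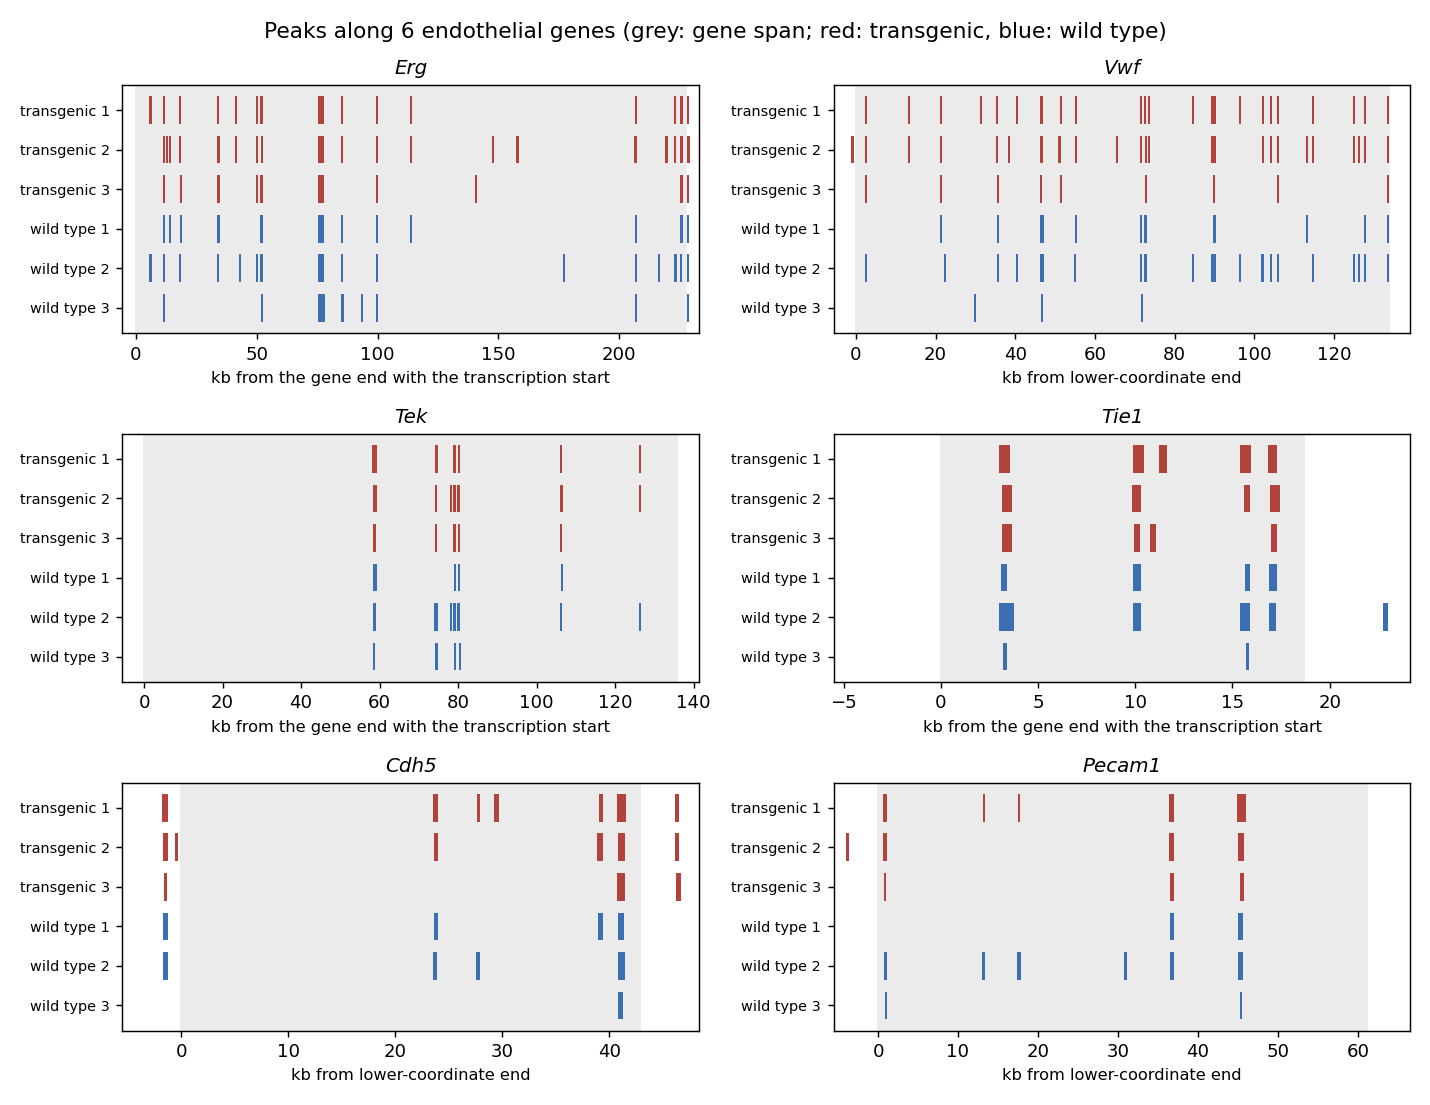
Position of every peak along 6 of the genes, 1 row per library (transgenic in red above wild type in blue), in kb from the gene end with the transcription start for Erg, Tek and Tie1 and from the lower-coordinate end for Vwf, Cdh5 and Pecam1; the gene span is grey, and the narrowest peaks are drawn widened to be visible. Tek peaks begin 58.1 kb or more inside the gene in all 6 libraries, and the wide Erg region 75.3 kb inside the gene is present in each.

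The peaks at the 10 genes merged into 92 regions, of which 82 lay in a body, 5 at an end and 5 in a flank. A peak in all 6 lists was found at 12 of them (13.0%, against 10.9% of all 166001 merged regions), and a peak in 1 list alone at 24 (26.1%, against 28.4%). Both shares are near those of the genome. At the 12 shared regions the median score percentile within the list was 88.0%, 83.4% and 76.2% in transgenic replicates 1, 2 and 3, against 53.6%, 83.8% and 48.5% in wild-type replicates 1, 2 and 3. Wild-type replicate 2 lay within the range of the 3 transgenic lists, and wild-type replicates 1 and 3 stood lower. Whether list length bears on these ranks was not tested. A percentile is taken within lists of different length, so it is not a level that can be compared between them.

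**Figure D4:**
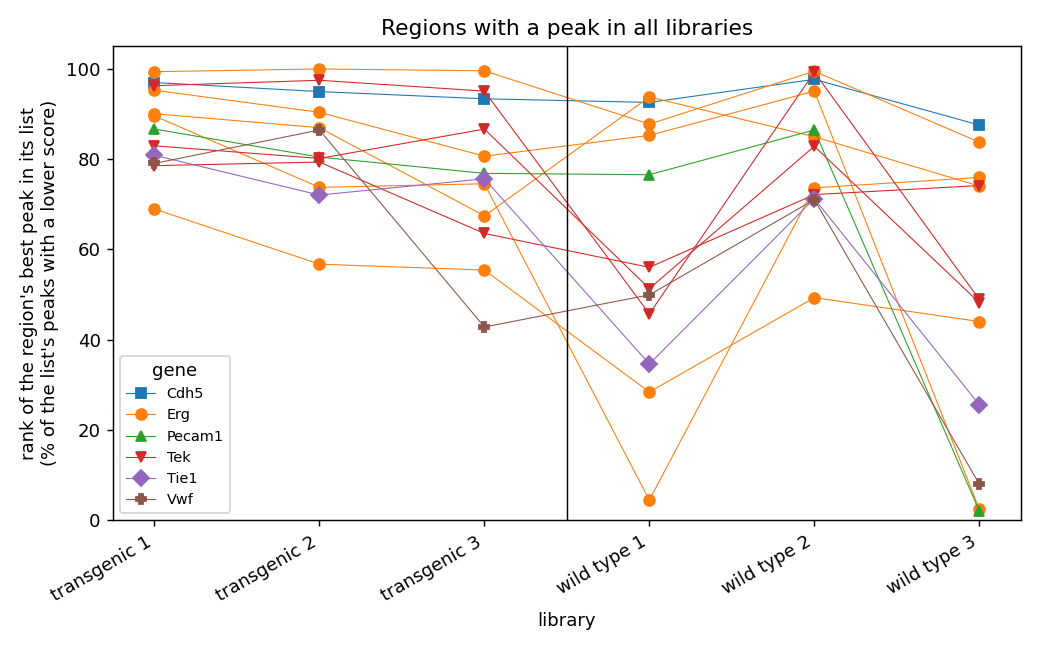
Rank of the best peak within its own list (% of the list's peaks with a lower score) for the 12 regions with a peak in all 6 libraries, by library and gene. Most points stand high in the 3 transgenic libraries and wild-type replicate 2 and spread down to 2.08% in wild-type replicate 3.

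Peaks in every transgenic list with none in the wild-type lists were seen at 3 of the 92 regions (3.26%), where 1.80% of all merged regions had that pattern, and the opposite at 0 of 92, where 0.0145% had it. The first lay beyond the higher-coordinate end of Cdh5, from 104147721 to 104148306, with scores of 127, 87.8 and 99.2 in transgenic replicates 1, 2 and 3. The second lay inside Vwf, from 125603775 to 125604432, with scores of 202, 167 and 66.1. The third lay inside Kdr, from 75968580 to 75968930, with scores of 63.2, 68.2 and 66.2, all close to the lowest score listed. With the 30640 top-scoring peaks of each list, 0 of the 35 regions left had the transgenic pattern, where 1.13% of all regions did. With all peaks but without transgenic replicate 3, the count was 7 of 92 (7.61%, against 6.15% of all merged regions), and without wild-type replicate 2 it was 8 of 92 (8.70%, against 12.2%). Without any 1 of the other libraries it was 3 or 4, where 1.94% to 3.31% of all merged regions had the pattern.

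None of the 10 windows held a region from the authors' deposited table of 407 differential regions, where 0.854% of protein-coding genes did. The nearest such region lay 62.0 kb from Sox17, from 4559405 to 4561135 as the table gives it. In the authors' deposited table it was higher in transgenic lungs, with a log2 concentration of 7.28 in transgenic and 6.72 in wild-type lungs, a log2 difference of 0.56 and an FDR of 0.0463. For the other 9 genes the nearest region of the authors' deposited table was 470 kb away at Kdr and further at the rest.

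Other genes of the endothelium gave a similar picture. Of 55 listed receptors, ligands, transcription factors and surface or secreted proteins, 44 had a peak in at least 1 list. The other 11 had none, as had 19.2% of all protein-coding genes. Of the 44, 0 had more or fewer peaks in every transgenic than in every wild-type list (3.51% and 0.0339% of all genes tested). These 44 were 14 of 17 receptors, 7 of 7 ligands, 10 of 13 transcription factors and 13 of 18 surface, junction and secreted proteins. None of the 55 had a peak within 1 kb of an end in all 6 lists, where 3.54% of protein-coding genes had one. The median difference in peak number, transgenic minus wild type, was 0.833 for the 44 genes. The following were chosen after their values were seen, for their relation to the 10 genes. Flt1, the second receptor for vascular endothelial growth factor beside Kdr, had 22, 20 and 10 peaks in transgenic and 10, 20 and 2 in wild-type lists. Angpt2, a ligand of Tek, had 9, 7 and 7 peaks in transgenic and 4, 7 and 1 in wild-type lists, and its relative Angpt1 had 3, 3 and 2 against 2, 2 and 2. Fli1, an ETS factor close to Erg, had 11, 6 and 3 peaks in transgenic and 5, 8 and 0 in wild-type lists. Of the SOXF relatives of Sox17, Sox18 had no peak in any list, and Sox7 had 1, 0 and 0 peaks in transgenic and 1, 1 and 0 in wild-type lists. All these groups met or overlapped.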

How the data were processed

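Genomic DNA of mouse lung was captured with the MethylCap kit, per the labels' protocols. Bowtie, DiffBind and edgeR and the build mm10 are named in the submitters' processing notes, without versions. Each library has its own peak list. The score of each peak is the authors' deposited value from the peak caller, with no settings stated, and it is not normalized between lists. Concentrations and folds in the authors' deposited table are log2 values, and per the file headers its p-value and FDR columns come from the authors' fit.

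Peaks were counted in span plus or minus 5 kb of RefSeq genes (GRCm38.p6) at an overlap of 1 bp, and in ends (plus or minus 1 kb), body and flanks. A peak over 2 of these counts in both. Starts from peak lists are 1-based. Libraries were grouped and numbered by title. The 3 lungs of a group are biological replicates per the study's design text. Two-sided exact permutation tests compared peak numbers over all genes with Benjamini-Hochberg adjustment, using Python 3.11.15, numpy 2.4.6 and pandas 2.3.3. The calls were tested on simulated data.

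The 10 genes, the list of 55 others and the tests were chosen with earlier results of these data known. All 10 genes are named. Regions named by rule are the 12 with the highest lowest score among those with a peak in all 6 lists or in 1 group alone, and other regions and genes were chosen after their values were seen. Of the 55, those that separate the groups or have an end peak in all 6 lists were to be named, and none did. The alternatives were equal list lengths (30640 peaks), peaks reaching the median score of all lists together (96.3), flanks of 2 and 10 kb, end zones of 500 and 2000 bp, peak midpoints, covered percent, a replicate block and leaving out each library. The counts of regions with 1 group's peaks alone were recomputed as an addition made after seeing the data. The authors' annotation tables were not used here.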

Additional observations from a re-analysis of the deposited data

How the results depend on the processing

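No direction reversed under other flanks, end zones or midpoints, although the difference was 0 at Cldn5 with flanks of 2 kb and at Pecam1 with flanks of 10 kb. Directions did change when the lists were cut to equal length. All differences are transgenic minus wild type, in the mean per list. With equal numbers of top-scoring peaks, the summed peak number of the 10 genes differed by -3, genes with any peak by 0.333 and genes with an end peak by -0.333, against 15.3, 1.33 and 1 with all peaks. In that setting the peak number differed by -0.333 at Pecam1, -0.333 at Kdr, -1 at Vwf and -2.33 at Erg. The Erg number includes the separate peaks into which its widest region was split in wild-type replicates 1 and 3. The difference was 0.667 at Tek, 0.333 at Emcn and 0 at Cdh5 and Tie1. With peaks reaching the median score of all lists together, genes with any peak, an end peak and a body peak differed by 3.33, 1.67 and 3.33. Leaving out each library in turn gave -0.833 to 3.67 at Erg, -0.167 to 1.33 at Tie1, 5 to 26 for the summed peak number, 0 to 2 genes that separate the groups, and 3 to 8 regions with transgenic peaks alone. That last count was 0 with equal list lengths. At 100 kb around the genes, 1 had a region of the authors' deposited table (Sox17), against 0 at 5 and 50 kb.

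With the replicate number as a block, 2 genes (Cdh5 and Vwf) had more peaks in the transgenic list of every same-numbered pair, as had 20.9% of all genes tested. Whether the numbers pair the lungs is not known. Deviations from the group means correlated at -0.39, 0.48 and 0.82 for the same-numbered pairs 1, 2 and 3. Transgenic replicate 1 correlated best with wild-type replicate 2 (0.72), while transgenic replicates 2 and 3 correlated best with the wild-type list of their own number. Such correlations cannot show whether the lungs were paired. Reads per library are unknown, so what depth limits could not be measured.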
